A study of Mus musculus with 9 samples.

Results

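Striatal gene expression after methamphetamine (METH) was compared with that after saline. The 6 arrays titled METH 1 to 3 and Control 1 to 3 were taken from a series of 9, the other 3 being MPTP arrays, and all genes measured on them were described. The mice were male C57BL/6J, 56 days old, and received saline, METH or MPTP by injection. Each array held total RNA from the left and right striatum of 1 mouse, and the design text calls them biological replicates. Sources used here do not give the doses, the number of injections or the interval to dissection. The labels name no transgene, and both toxins were given as models of Parkinson's disease. The series title asks about microRNAs and codon usage, neither of which these arrays measured.

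METH enters dopamine terminals through the dopamine transporter and releases dopamine from synaptic vesicles into the cytosol. At high doses the terminals in the striatum are damaged, while the spiny neurons that receive them largely remain. Astrocytes answer injury of terminals by making more of the intermediate filament protein GFAP, and microglia, the macrophages of the brain, gather and change shape. The striatum consists mostly of GABAergic spiny projection neurons, with interneurons, astrocytes, oligodendrocytes of the passing fibre bundles, microglia and vessels. The cell bodies of dopamine neurons lie in the midbrain, so their transcripts are scarce in striatal RNA. In whole tissue, fewer cells of a type and less RNA per cell cannot be told apart, which holds for every cell type named here.

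Each array gave 1 linear signal for each of 22690 probe sets, which are groups of short probes against 1 transcript. Signals had been scaled to a common trimmed mean before deposit. Spearman correlations among the 6 arrays were 0.97 to 0.984. METH 2 stood slightly apart, with the highest median signal of the 9 arrays, 1233 against 1111 to 1178 on the others. Its log2 range from the 10th to the 90th percentile was also the narrowest, at 6.25. A filter at the 40th percentile of mean log2 signal removed the dimmest probe sets, and 7964 of 12393 genes were tested, each by its probe set of highest mean signal. The defining transcripts of striatum were present: all 24 pan-striatal spiny neuron markers on the array passed the filter, and Penk read 50590.4, 59113 and 56032 on control arrays and 52673, 55969.8 and 51368 on METH arrays.

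Gfap was the 1 gene of 7964 past the test in limma, at an adjusted p under 0.05 (0.0126% of genes). Before adjustment, 657 genes had p under 0.05 (8.25%), of which 414 were higher in METH (5.2% of genes tested) and 243 lower (3.05%). By sign alone 50.3% of genes were higher and 49.7% lower. Higher genes were 63% of these 657, but 49% after quantile normalization, 49.3% after cyclic loess and 31.6% with arrays centred on their medians. The METH arrays were entirely above the control arrays for 516 genes (6.48%) and entirely below for 573 (7.19%). Most differences were small. The median size was 0.11 log2 units, the 99th percentile was 0.58, and 14 genes exceeded a 2-fold difference. Values below are log2 differences, METH minus control, with the SE of the limma fit, and signals are given in the order of array 1, 2 and 3. No gene other than Gfap passed, so the values of all others describe these 6 mice. With 3 arrays against 3, an exact permutation test cannot go below p = 0.1.

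Gfap encodes the intermediate filament of astrocytes that is the standard marker of their reaction to injury. Its signal was 5403, 5020.2 and 6436 on the control arrays and 13823, 10957 and 12077 on the METH arrays. Every METH value was well above every control value, with no overlap. The rise was 2.19-fold, a log2 difference of 1.13 ± 0.13 with adjusted p = 0.0404 (n = 3 each, limma). The other Gfap probe set read 1930.1, 2293 and 2366 in control and 6022, 4991 and 4964 in METH, a difference of 1.28 ± 0.13, so each probe set showed the rise. These were the 2 of 13584 probe sets past the test (0.0147%) when probe sets were tested without merging them by gene, where 8.77% had an unadjusted p under 0.05. The size held at 1.04 to 1.23 under all 20 alternatives, but the call did not: adjusted p ran from 0.00779 to 0.268. It was lost with arrays centred on their medians (0.106), with no filter (0.137), with the replicate number as a block (0.0759) and with METH and control arrays alone in the fit (0.148). Leaving out 1 array also ended it, for Control 2 (0.268), METH 1 (0.264), METH 3 (0.237), Control 1 (0.203), MPTP 3 (0.148) and MPTP 1 (0.0776).

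The Gfap promoter is shown because Gfap carries the only call, and the Irgm1 promoter as that of a gene of interferon response described further on. STAT3 is a known driver of Gfap in reactive astrocytes, and STAT factors bind sites of the form TTCNNNGAA, which reads the same on both strands. Interferon-regulatory factors bind the interferon-stimulated response element, searched on both strands as GAAA repeated after a gap of any 2 bases. The windows run from 250 bases before to 50 after the gene start in RefSeq (GRCm38.p6), chr11:102897151-102897450 for Gfap and chr11:48871371-48871670 for Irgm1, both on the minus strand and printed 5′ to 3′ in the direction of transcription. Capitals mark the motif matches, 1 TTCNNNGAA match in Gfap and 2 overlapping matches of the GAAA repeat in Irgm1.
Gfap: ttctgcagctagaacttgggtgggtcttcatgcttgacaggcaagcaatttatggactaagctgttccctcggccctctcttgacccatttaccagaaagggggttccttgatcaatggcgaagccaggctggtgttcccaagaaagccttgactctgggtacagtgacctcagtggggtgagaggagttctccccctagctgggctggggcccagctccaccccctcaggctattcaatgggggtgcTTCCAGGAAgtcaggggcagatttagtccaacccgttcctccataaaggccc
Irgm1: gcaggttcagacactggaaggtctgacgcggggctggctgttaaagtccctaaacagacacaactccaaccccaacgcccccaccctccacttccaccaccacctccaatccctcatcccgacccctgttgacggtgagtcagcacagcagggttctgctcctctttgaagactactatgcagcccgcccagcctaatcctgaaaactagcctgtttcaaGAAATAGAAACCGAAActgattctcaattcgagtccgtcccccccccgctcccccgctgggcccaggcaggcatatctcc
Of 32851 RefSeq promoters of this length, 8.3% hold a TTCNNNGAA match and 3.44% the spaced GAAA repeat on either strand. The same window was searched for 5 more genes described here. Those of Vim, Abca1, Hspa1b and H2-D1 hold neither, and of the 2 windows of Irf1, a further gene of interferon response, 1 holds a TTCNNNGAA match and neither holds the GAAA repeat. A match is a description of the letters and says nothing of binding in these mice.

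Other genes of reactive astrocytes gave smaller values or were too dim to test. Of 22 on the array 8 passed the filter on low signal, so no count over them is drawn. Vim, a further intermediate filament gene, read 3244, 3204 and 3201 in control and 4787, 4497 and 3799.8 in METH, a difference of 0.43 ± 0.13 (adjusted p = 0.503). The control values were nearly equal, and each METH value lay above them. All 3 Vim probe sets were higher, by 0.43 to 0.68. S100a10, a calcium-binding protein gene, had 0.35 ± 0.13 with no overlap. Cp, the ferroxidase ceruloplasmin, pointed the other way: it read 1398, 1579 and 1105 in control and 866, 460.2 and 984 in METH, with a difference of -0.88 ± 0.33 (adjusted p = 0.543). Its lowest value was on METH 2, and the groups did not overlap.

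The general astrocyte markers showed no comparable difference. Of 26 markers, all of them tested, 15 were higher and 11 lower, and their median was 0.021 against 0.00092 over all genes. Below, a list's median percentile of signal runs from 0, dimmest, to 100, brightest, and for these markers it was 75.7. The median turned to -0.04 with arrays centred on their medians and to -0.01 without METH 2 or Control 1. Aqp4, the water channel of astrocyte endfeet, read 5359, 5048 and 5247 in control and 6228, 6336 and 6403 in METH, with 0.28 ± 0.08 (adjusted p = 0.490). The groups were tight and apart, and its other tested probe set had 0.23. Kcnj10, the potassium channel with which astrocytes buffer potassium, is not among the 26 and had 0.26 ± 0.10. Slc1a3, a glutamate transporter gene, had -0.30 ± 0.20 with wide overlap. Gfap thus had a difference of 1.13 while the widest among the 26 general markers in either direction was -0.30.

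**Figure D1:**
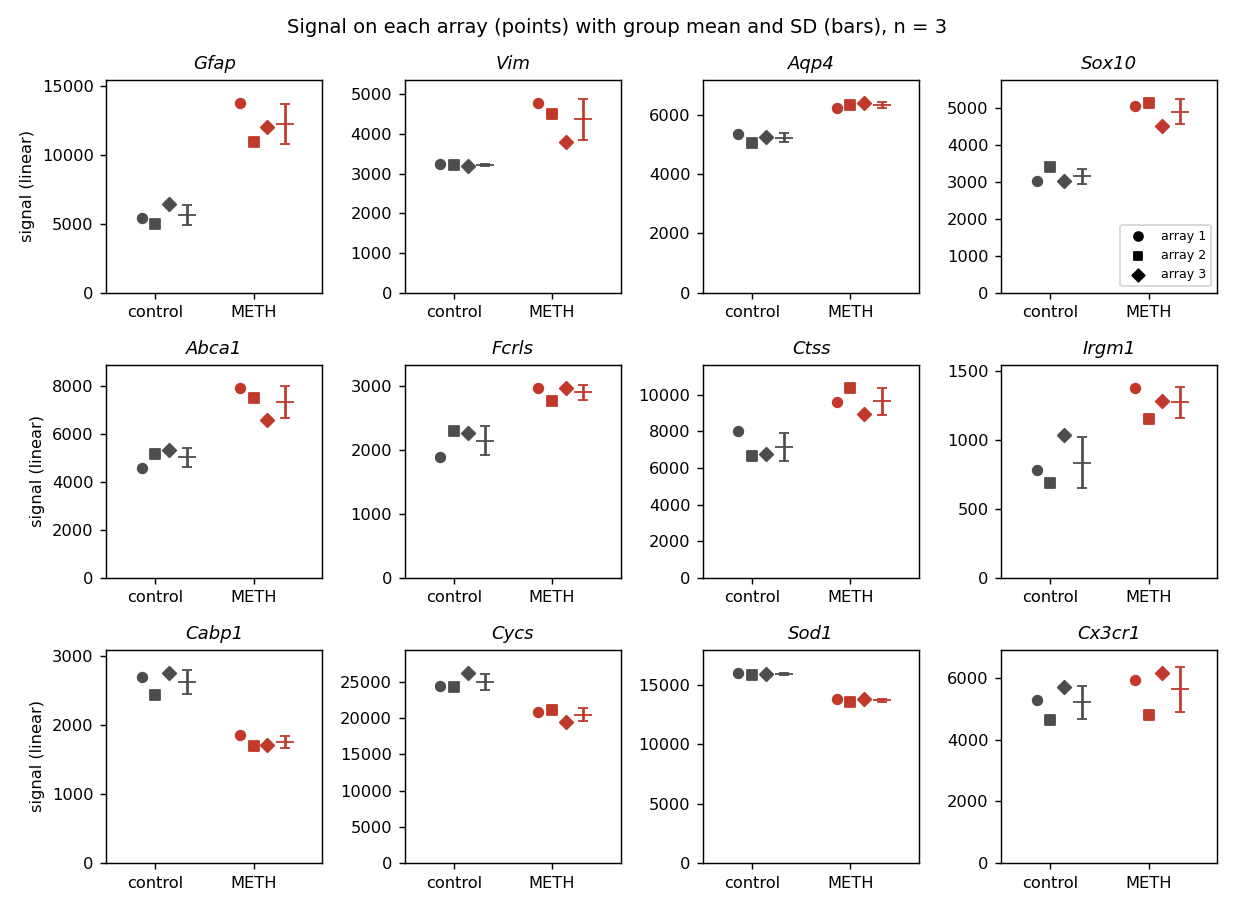
Linear signal (y axis, from 0) on each of the 3 control and 3 METH arrays for 12 genes, with the group mean and SD beside the points. Gfap signals on METH arrays (10957 to 13823) lie far above control (up to 6436), and 10 other genes differ by a smaller step without overlap. In Cx3cr1 the groups overlap by the probe set shown, its brightest.

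A relation with signal level ran through the whole comparison and stands beside every list that follows. With the genes ordered by mean signal and divided into deciles, the median difference went from 0.093 in the dimmest decile to -0.067 in the brightest. In the dimmest decile 66.7% of genes were higher in METH, and in the brightest 26.2%. The 3 METH arrays did not share it equally. The median in the dimmest decile was 0.098 in METH 1, 0.23 in METH 2 and -0.012 in METH 3, and in the brightest decile -0.064, -0.086 and -0.045. METH 2, the array with the narrowest signal range, had the steepest slope, and METH 3 was nearly level except in the brightest decile. Groups whose arrays did not overlap followed the same course: METH lay below control for 17.7% of the brightest decile and 3.27% of the dimmest, and above for 2.01% and 9.17%. The part of this relation in the list results was not tested. Array controls differed too. By 1 probe set the bacterial control bioC read 3557, 3635 and 3180 in control and 2745, 2863.5 and 2877 in METH, without overlap. By 1 probe set the control cre read 53553, 64562 and 58917 and 47762, 62837 and 49943, with overlap. Some dimmer controls were higher in METH. The part of such a shift in the list results was not tested either. The filter took the mean over all 9 arrays, so a dim gene could also pass it through high METH or MPTP values. Each list median below is given with the list's median percentile of signal. The median over all genes of that decile, the median after quantile normalization or cyclic loess and the median without 1 array follow where they bear on its sign or size.

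**Figure D2:**
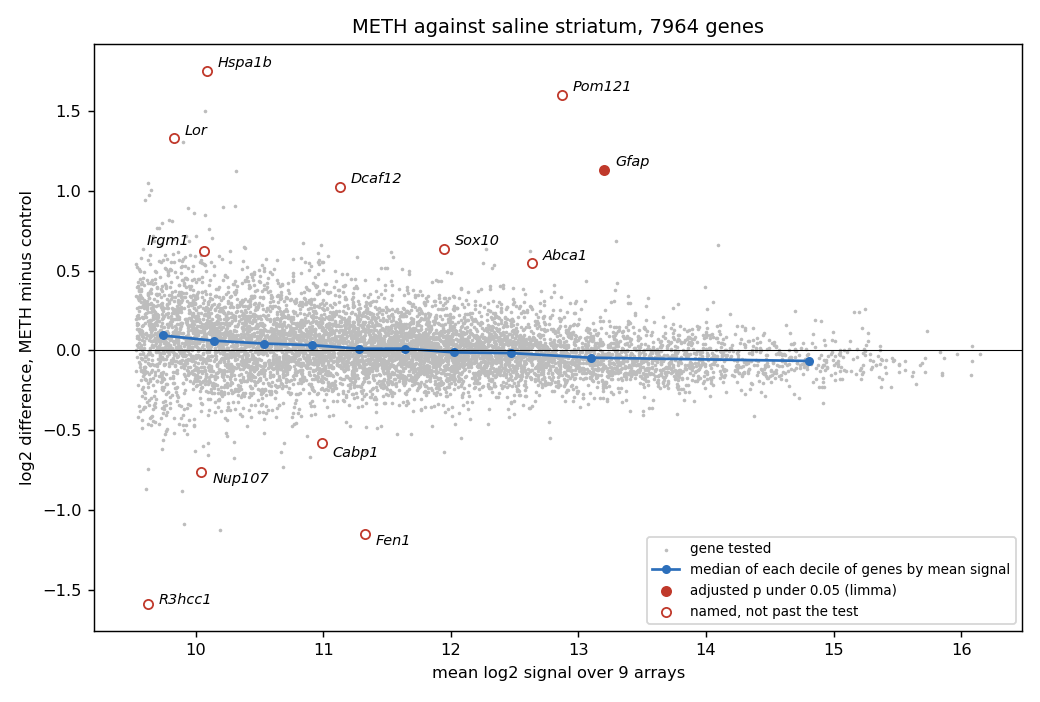
Log2 difference, METH minus control (y axis), against mean log2 signal over 9 arrays (x axis), 1 grey point per gene for 7964 genes, with the median of each decile of genes in blue. The filled circle is Gfap, the only gene past the test, and the blue line falls from 0.093 at low signal to -0.067 at high signal.

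**Figure D3:**
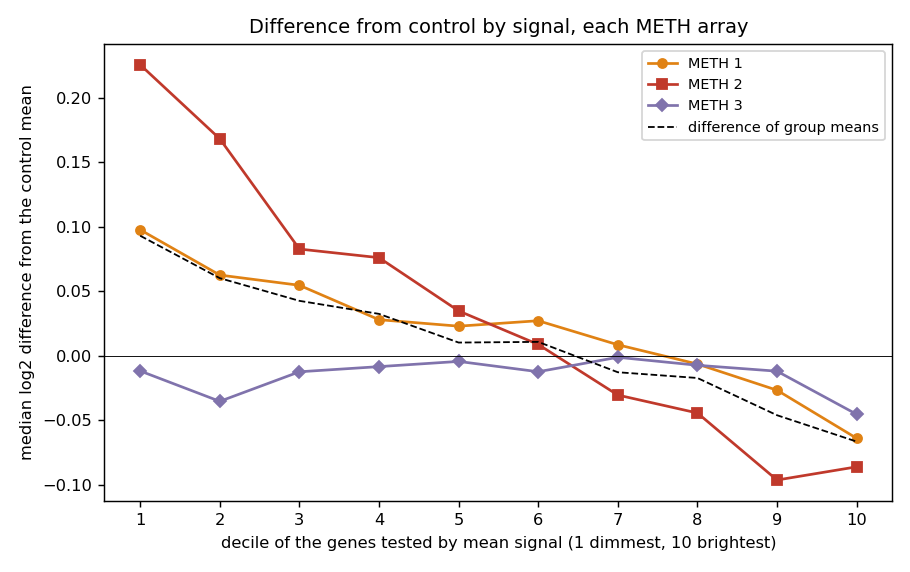
Median log2 difference from the control mean (y axis) in each decile of genes by mean signal (x axis), 1 line per METH array, with the difference of group means dashed. METH 2 runs from 0.23 to -0.086, METH 1 from 0.098 to -0.064, and METH 3 starts at -0.012 and ends at -0.045.

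Microglia and macrophage markers were the cell type list with the most genes at an unadjusted p under 0.05. Of 30 tested (38 on the array), 26 were higher, 11 of them at an unadjusted p under 0.05 against 5.2% of all genes, and 0 lower ones reached it. The median was 0.20, and it was 0.19, 0.20 and 0.14 after quantile normalization, cyclic loess and centring on array medians. The list sat at the middle of the signal range (median percentile 50.5), where the median of all genes was 0.011. The mean deviation from the control mean was 0.23, 0.25 and 0.18 in METH 1, 2 and 3, against 0.07, -0.09 and 0.02 in the controls. All 3 METH arrays stood above the controls, the flat array METH 3 included.

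The microglial members with the smallest p-values encode surface receptors and lysosomal proteases. Fcrls, a receptor-like gene of microglia, read 1885, 2288 and 2264 in control and 2968, 2760.5 and 2973 in METH, with 0.44 ± 0.10 (adjusted p = 0.374). Ctss, the lysosomal protease cathepsin S, read 8041, 6642 and 6762 and 9608, 10380.1 and 8932, with 0.43 ± 0.11 (adjusted p = 0.469). In each gene the lowest METH array stood above the highest control array. Tyrobp, the adaptor of TREM2, had 0.33 ± 0.10, and Aif1, which encodes the microglial marker IBA1, had 0.35 ± 0.13, again without overlap. Cx3cr1, the fractalkine receptor of resting microglia, read 5283, 4627 and 5719.6 and 5937, 4803 and 6173, and with 0.11 ± 0.19 the groups overlapped. Its dimmer tested probe set read 1089, 1036 and 666 in control and 1098, 1136 and 1512 in METH. There the difference was 0.44 ± 0.20, and the groups only just failed to overlap. Ctsz, a further cathepsin gene, had 0.51 ± 0.14 by the probe set of highest signal, but its other probe sets had -0.23 and -0.03, so the gene has no settled direction.

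Complement and lysosomal genes lay on the same side. All 8 complement genes tested (of 16 on the array) were higher, with a median of 0.18 at median percentile 50.7. Of these, 2 had an unadjusted p under 0.05 (5.2% of all genes) and 1 was without overlap (6.48% of all genes). The list's mean deviation was 0.31, 0.21 and 0.12 in METH 1, 2 and 3, and Control 1 was close to METH 3 at 0.11. C1qa and C1qb are also among the microglial markers, so the lists share members. C1qa, a chain of the initiating protein C1q made by microglia, read 5414, 4931 and 5339 in control and 5963, 5839 and 6009.9 in METH, with 0.18 ± 0.08 and no overlap. C1qb had 0.19 ± 0.10 with overlap, and 2 of its 3 probe sets were higher. Cfi, the protease that breaks down C3b, had 0.53 ± 0.22 with overlap. Lysosomal genes were higher for 31 of 40 but by little, with a median of 0.046 at median percentile 66.5 that turned to -0.02 with arrays centred on their medians and was 0.01 without Control 2 and 0.07 without Control 1, METH 2 or METH 3. Ctsh, a cathepsin, had 0.59 ± 0.18, and Sgsh, the sulphatase that degrades heparan sulphate, had 0.97 ± 0.33. Both were dim, and 1 control array of Sgsh read 306 against 707 and 753 on the others.

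Genes of interferon response were mostly higher and mostly dim. Of 21 tested (47 on the array), 18 were higher and 3 lower, with a median of 0.12 at median percentile 15.1, where the median of all genes was 0.060. Dim genes can pass the filter through high METH or MPTP values, which favours higher ones in this count. After quantile normalization or cyclic loess the median was 0.06, and it was 0.08 without Control 2, 0.07 without Control 3 and 0.20 without METH 3. Irgm1, an interferon-induced guanosine triphosphatase that acts on vacuoles of pathogens, read 782, 684 and 1037 in control and 1376, 1153 and 1279 in METH, with 0.62 ± 0.14 (adjusted p = 0.432). The 3 METH values stood together above the highest control. Irf1, the transcription factor that carries the response to interferon gamma, read 995, 1446 and 1812 and 2184, 2817 and 1725, with 0.68 ± 0.23. Here Control 3 exceeded METH 3, so the groups overlapped. Rsad2, an antiviral enzyme of the type I response, had 0.39 ± 0.14 without overlap.

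Class I antigen presentation was split. Of 10 genes tested 5 were higher and 5 lower, with a median of 0.049 at median percentile 68.7, -0.01 with arrays centred on their medians, 0.02 without Control 1 and 0.08 without Control 2. H2-D1, a class I heavy chain, read 3069.97, 4458 and 3164 in control and 5511, 4319.5 and 4964 in METH, with 0.48 ± 0.17 and an overlap through Control 2 and METH 2. Its other tested probe set had 0.36, but class I genes are so alike in sequence that probes may read several of them. B2m, the invariant light chain, had 0.28 ± 0.12 with no overlap. Class II genes were nearly all too dim, with 3 of 9 tested, among them the invariant chain gene Cd74 at 0.10.

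Among 21 tested genes of cytokine, chemokine and NF-kB signalling, 14 were higher, and the median was 0.13 at median percentile 42.9. It was 0.04 without Control 2, 0.08 without METH 2 and 0.06 with arrays centred on their medians. Ikbkg, the regulatory subunit NEMO of the IKK complex, read 1406, 1719 and 1666 in control and 2565, 1966 and 2510.2 in METH, with 0.55 ± 0.15, and all 3 of its probe sets were higher. Myd88, the adaptor of Toll-like and interleukin 1 receptors, had 0.55 ± 0.21, with 1 low control at 490. Vcam1, an adhesion molecule, had 0.32 ± 0.13. Cxcl12, a chemokine of vessels and neurons, was on the lower side with -0.38 ± 0.12 and a slight overlap, since Control 1 at 3169 lay just below METH 3 at 3199. These genes did not pass, with adjusted p of 0.479 to 0.545.

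Among genes of lipid handling, Abca1 and Lpcat3 had the smallest p-values. Abca1 exports cholesterol from astrocytes and microglia to apolipoproteins and is driven by liver X receptors (LXR). It read 4561, 5173 and 5336 in control and 7926, 7489 and 6592 in METH, a difference of 0.55 ± 0.10 (adjusted p = 0.343). Every METH array was above every control array, and so it was in its 2 other probe sets, with 0.53 and 0.91. Lpcat3, an LXR-driven enzyme that places polyunsaturated chains in phospholipids, read 1709.8, 1589 and 1591 and 2529.96, 2700.03 and 2251, with 0.61 ± 0.10 (adjusted p = 0.303). Apoe, the main apolipoprotein of brain, had 0.26 ± 0.10, and Clu, which encodes clusterin, had 0.24 ± 0.09 with all 4 probe sets higher. Both are among the brightest transcripts, where the median of all genes was -0.067, and neither overlapped between groups. Of the 16 genes of LXR-driven lipid export tested, 10 were higher, and the median was 0.11 at median percentile 74.3. It was 0.05 after quantile normalization and cyclic loess and 0.01 without Control 3.

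Genes of cholesterol synthesis and uptake lay on the other side. Of 27 tested, 18 were lower, 6 with all METH arrays below control against 7.19% of all genes, and the median was -0.080 at median percentile 59.7, -0.09 after quantile normalization and -0.04 without METH 2. Msmo1, a sterol methyl oxidase, read 5208, 5637 and 5172 in control and 4140.4, 4695 and 4346 in METH, with -0.28 ± 0.10. Sqle, which makes squalene epoxide, had -0.35 ± 0.14, and Hmgcs1, which supplies the substrate of the rate-limiting reductase, had -0.26 ± 0.13, each without overlap. All 4 Hmgcs1 probe sets were lower.

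Oligodendrocyte genes showed 1 large value among many near 0. Sox10, the transcription factor that keeps oligodendrocyte identity, read 3033, 3398 and 3037 in control and 5057, 5159.99 and 4517 in METH, with 0.64 ± 0.10 (adjusted p = 0.175). METH values lay together far above control by this probe set, but the other 2 probe sets gave 0.32 and 0.11, the latter from control values of 3229, 3322 and 3243 and METH values of 3529.7, 3400.2 and 3673. Of 26 myelin and oligodendrocyte markers 16 were higher, with a median of 0.037 at median percentile 82.2. It turned to -0.03 with arrays centred on their medians and to -0.04 without Control 1, and was 0.11 without Control 2 and 0.07 without Control 3 or METH 2. Cldn11, the tight junction protein of myelin, had 0.24 ± 0.08 without overlap. Mbp, the myelin basic protein gene, had -0.01 ± 0.11.

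Vessel genes were more often lower, but the arrays overlapped. Of 30 endothelial and pericyte markers tested 23 were lower, and the median was -0.078 at median percentile 39.0, where the median of all genes was 0.032. It stayed negative under all 20 alternatives, from -0.14 with arrays centred on their medians to -0.02 without Control 1. The mean deviation of the list was 0.11, -0.04 and -0.07 in the controls and -0.06, -0.02 and -0.12 in METH, an overlap. Cd34, a sialomucin of endothelium, read 1427, 1275 and 1497 in control and 1141, 1091 and 1101 in METH, with -0.33 ± 0.10, and Igfbp7, a secreted endothelial protein, had -0.32 ± 0.12, both without overlap. Sparc, a matrix glycoprotein of vessels and glia, was higher with 0.40 ± 0.16, its METH 2 value of 14377 falling among the controls. The haemoglobin gene Hbb-b2, a marker of blood left in the tissue, read 776, 423 and 692 and 1011, 1068 and 879.8, with 0.69 ± 0.23. Of the 17 blood cell markers on the array 5 were tested, and their mean deviation from control was -0.13 to 0.24 over the control arrays and -0.01 to 0.34 over METH, an overlap. The part of blood in the microglial and interferon values was not tested.

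Matrix genes were dim, and their share of higher genes was close to that of all genes of like signal. Of 103 on the array 48 were tested, 29 of them higher (60.4%, against 58.1% of all genes of that decile). Dim genes can pass the filter through high METH or MPTP values, which favours higher ones in this count. The median was 0.078 at median percentile 21.1, where the median of all genes was 0.043. It was 0.01 after quantile normalization, -0.02 without METH 2, 0.03 without Control 3, 0.12 without Control 1 and 0.14 without METH 3. Col25a1, a membrane-bound collagen, read 925, 856 and 648 in control and 1369.9, 1163 and 1431 in METH, with 0.72 ± 0.18. Mmp2, a metalloproteinase, had 0.41 ± 0.14, and Col6a2 had 0.25 ± 0.09. Timp2, an inhibitor of metalloproteinases, showed a split among the controls: it read 9541, 10303 and 20559.9 and 19994, 21835 and 18282, and Control 3 lay with the METH arrays.

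Pan-striatal spiny neuron transcripts stayed close to control. The 24 pan-striatal markers had a median of -0.024 at median percentile 95.6, where the median of all genes was -0.067. It became 0.01 and 0.03 after quantile normalization and cyclic loess, and ran from -0.07 without METH 2 to 0.02 without Control 2. Ppp1r1b, which encodes DARPP-32, had 0.03 ± 0.11, Penk, the enkephalin precursor of the indirect pathway, -0.05 ± 0.10, and Drd2, the D2 receptor of the same neurons, -0.11 ± 0.11. Tac1, the substance P precursor of the direct pathway, read 27008, 24939 and 22160.5 in control and 20112, 20090.1 and 21373 in METH, with -0.26 ± 0.10 (adjusted p = 0.543). Its METH values were lower without overlap, while Pdyn, the dynorphin precursor of the same neurons, had -0.14 ± 0.15 with overlap. Sst, a peptide of interneurons, had -0.23 ± 0.09 without overlap.

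Transcripts for dopamine synthesis gave no common direction. Th, the rate-limiting enzyme, read 1542, 1151 and 1057 in control and 1201, 1546 and 1095 in METH, with 0.04 ± 0.16 and full overlap. Ddc, the decarboxylase that follows it, had 0.41 ± 0.16 with overlap. Of 21 genes of dopamine neurons and terminals 10 were tested, and these arrays did not measure terminals or dopamine.

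Of 26 neuronal calcium-binding and calmodulin genes 16 were lower, 4 at an unadjusted p under 0.05 against 3.05% of all genes. The share higher, 38.5%, was close to the 34.5% of all genes of their decile. The median of -0.058 at median percentile 81.9 stands beside -0.046 over all genes of that decile. It was -0.03 after quantile normalization, -0.02 after cyclic loess and -0.03 without Control 1, and -0.09 without Control 2 and -0.10 without METH 3. Cabp1, a calcium-binding protein of neurons, read 2696, 2428 and 2756 in control and 1859, 1699 and 1709.9 in METH, with -0.58 ± 0.11 (adjusted p = 0.343). The METH values were close to each other and far below control. Nrgn, which binds calmodulin in dendrites, had -0.30 ± 0.11, and Ryr1, a calcium release channel, had -0.46 ± 0.13, both without overlap. Cabp1 and Nrgn also stand among 15 tested cortical glutamatergic markers, of which 11 were lower, with a median of -0.17 at median percentile 68.5. It was -0.07 without METH 1, -0.08 without Control 1 and -0.30 without METH 3. The mean deviation of that list was -0.20 to 0.16 over the control arrays and -0.32 to -0.04 over METH, with overlap. How much cortex each dissection held was not tested as a source of these values.

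Synaptic genes had small negative medians at high signal. Of 42 presynaptic genes 27 were lower. The share higher, 35.7%, was close to the 34.5% of all genes of their decile. Their median was -0.093 at median percentile 86.5, where the median of all genes was -0.046. After quantile normalization it was -0.06, and it was -0.01 without METH 1, -0.04 without Control 3 and -0.06 without Control 1. Syp, the vesicle protein synaptophysin, read 15845, 15502 and 15599 in control and 12510.4, 12659 and 14552 in METH, with -0.24 ± 0.09. Cplx2, which clamps vesicle fusion, had -0.32 ± 0.11, and Syt7, a calcium sensor of slow release, was on the higher side with 0.52 ± 0.15. Of 19 postsynaptic scaffold genes 15 were lower, with a median of -0.10 at median percentile 81.8, -0.05 without METH 1 and -0.06 without Control 1. By mean deviation from control METH 3 lay among the control arrays in the presynaptic list (0.03) and in the postsynaptic list (0.009). Kalrn, an exchange factor that shapes spines, read 14327, 13579 and 13865 and 9608, 10621 and 12459, with -0.36 ± 0.11 and no overlap. Receptor genes were split: Gria2, an AMPA receptor subunit, had -0.19 ± 0.08, and Gabrb2, a GABA-A receptor subunit, had 0.51 ± 0.15.

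Neuronal cytoskeleton genes also had a small negative median. Of 39 neurofilament, tubulin and axon cytoskeleton genes 28 were lower. The share higher was 28.2%, against 34.5% of all genes of their decile. Their median was -0.073 at median percentile 89.2, where the median of all genes was -0.046, and -0.04 after cyclic loess. Tubb3, a tubulin of neurons, read 4049, 4339 and 4090.3 in control and 3382, 3006 and 3389.6 in METH, with -0.35 ± 0.09. Tubb2a had -0.38 ± 0.14 and Tuba4a -0.23 ± 0.10, though tubulin genes are alike enough that probes may read several. Dusp1, an activity-induced phosphatase that ends MAP kinase signals, read 6638, 7504 and 7505 and 5287, 4928 and 6268, with -0.40 ± 0.11, while Fos had -0.23 ± 0.13 with overlap. The 33 immediate early genes had a median of -0.029 at median percentile 40.8, which turned to 0.06 without Control 3 and was -0.09 without Control 1, so the list has no settled direction. Ppp1r1a, an inhibitor of protein phosphatase 1 controlled by cyclic AMP, had -0.37 ± 0.09 without overlap.

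Respiratory chain genes were nearly all lower, and the array control bioC given above was lower too. For complex I, which takes electrons from NADH, 32 of 34 genes were lower, 10 with all METH arrays below control against 7.19% of all genes and 17.7% of the brightest decile. The list lies at median percentile 91.1, and its median of -0.13 stands beside -0.067 over all genes of the brightest decile. The mean deviation from control was -0.07, -0.18 and -0.11 in METH 1, 2 and 3, and -0.05 to 0.03 in the controls. METH 2, steepest by signal, was lowest, and each METH array was below each control. Ndufb8 read 12225, 14342 and 14318 in control and 10931, 10737 and 11260.5 in METH, with -0.31 ± 0.10, and Ndufa1 read 32180.5, 33613 and 32928 and 28524, 27660.3 and 27935, with -0.23 ± 0.08. The METH values of Ndufa1 agreed to within a few percent and all lay under control. After quantile normalization 28 of 34 genes were lower, with a median of -0.08, and after cyclic loess the median was -0.07.

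Among complexes II to V and cytochrome c, the rest of the chain and ATP synthase, 39 of 43 genes were lower, and the median was -0.13 at median percentile 94.4. Without further normalization, as for that median, the brightest decile of all genes had -0.067. After quantile normalization and after cyclic loess the list median was -0.07, and 5 and 6 of the 43 genes were higher. Decile medians were not computed after these normalizations. Cycs, which encodes cytochrome c, read 24518, 24288 and 26282 in control and 20856, 21159 and 19514 in METH, with -0.29 ± 0.08. All 3 of its probe sets were lower, the others by little, with -0.08 and -0.08. Other parts of energy metabolism were nearer to 0. Enzymes of the tricarboxylic acid cycle had a median of -0.039 over 30 genes (median percentile 74.3) and glycolytic enzymes -0.021 over 19 (median percentile 92.4). Without single arrays the former ran to -0.08 (METH 3), with -0.07 without METH 1 or Control 2, and the latter to -0.08 (Control 2), with -0.05 without METH 1 and -0.04 without Control 3. Hk2, an inducible hexokinase that commits glucose to metabolism, had the highest value among them. It read 633, 641 and 631 in control and 930.1, 1002 and 771 in METH, with 0.50 ± 0.10 (adjusted p = 0.343). Pdk1, a kinase that holds pyruvate back from mitochondria, had 0.37 ± 0.13, with its 2 probe sets on the same side. Atp6v0e2, a subunit of the vacuolar proton pump, read 16536, 16863 and 15454 and 12611, 11522 and 12961, with -0.40 ± 0.10 and no overlap.

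Proteasome subunits, which form the chamber that breaks down ubiquitinated proteins, were lower for 28 of 34 genes, 13 with all METH arrays below control against 7.19% of all genes and 9.8% of the decile in which the list's median percentile lies. The median was -0.10 at median percentile 80.5, where all genes had -0.046. Psmc4, a base ATPase, read 4742, 4537 and 4679 in control and 4086, 3665 and 4259 in METH, with -0.22 ± 0.09 and 2 of 2 probe sets lower. Psmd13, a lid subunit, was the highest of the list with 0.31 ± 0.11, but its other probe set had -0.16, and the gene's direction turned where probe sets open to cross-hybridisation were left out. Cytosolic ribosomal proteins are brighter still (median percentile 97.1), and their median of -0.056 was close to that of the brightest decile and was -0.03 without METH 2, 0.00 after quantile normalization and 0.01 after cyclic loess. Rps10 read 34099, 32842 and 36438 and 27605, 27899 and 26579, with -0.33 ± 0.10 and 4 of 5 probe sets lower.

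**Figure D4:**
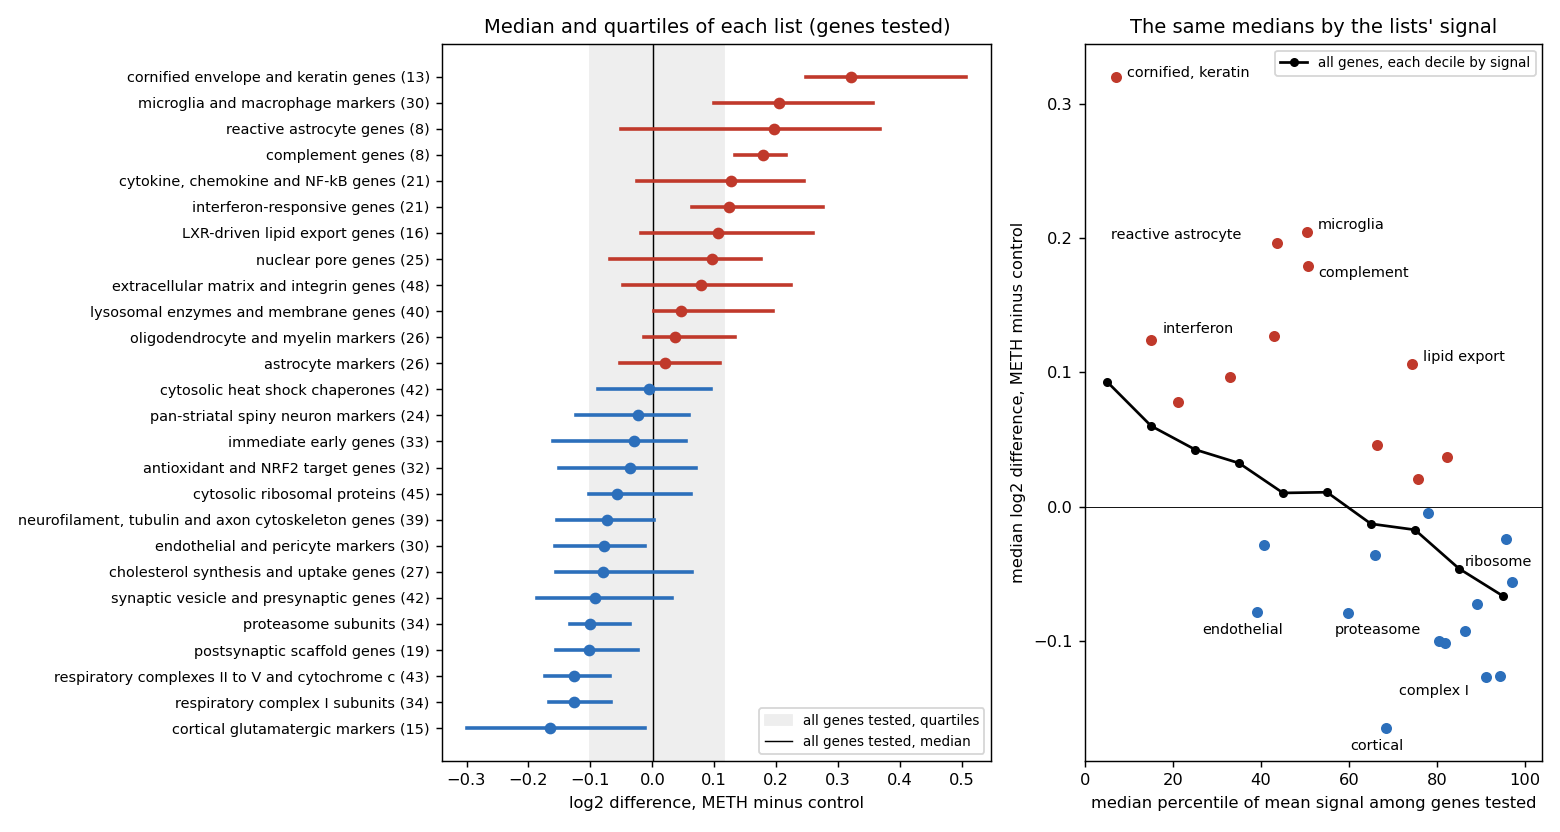
Left, median (point) and quartiles (bar) of the log2 difference, METH minus control, for 26 gene lists, with all genes tested as the grey band and line. Right, the same medians against each list's median percentile of signal (x axis), with the median of all genes in each decile in black: microglia (0.20) and complement (0.18) lie above that line at mid signal, and complex I (-0.13) lies below it at high signal.

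Genes that protect against oxidation were on the lower side among the small p-values. Of 32 antioxidant and NRF2 target genes 5 were lower at an unadjusted p under 0.05, against 3.05% of all genes, and 0 were higher, while the median was -0.036 at median percentile 65.9, -0.07 without Control 2 and -0.02 without Control 3. Sod1, the cytosolic superoxide dismutase, read 16032, 15866 and 15929.8 in control and 13782, 13583 and 13794 in METH, with -0.22 ± 0.08. Within-group spread was small and the groups were apart, but 1 of its 2 probe sets had the opposite sign. Gpx4, which reduces lipid peroxides in membranes, read 17059, 18309.9 and 16167 and 14184, 12339.9 and 14929, with -0.32 ± 0.10. Its other probe set had the same sign but only -0.05 ± 0.12, with overlap. Txn2, the mitochondrial thioredoxin, had -0.27 ± 0.11, and Glrx2, a mitochondrial glutaredoxin, -0.28 ± 0.08. The other Glrx2 probe sets had -0.09 and 0.04, so the probe sets did not share a direction. The glutathione transferase genes Gstm5 and Gstm1 had -0.31 ± 0.11 and -0.23 ± 0.10, and Gsto1 had 0.28 ± 0.12.

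Heat shock genes showed 1 wide difference. Hspa1b, the inducible HSP70, read 335, 511 and 1428 in control and 3031, 2026 and 1525 in METH, with 1.75 ± 0.50 (adjusted p = 0.494). Controls spread widely, Control 3 nearly reached METH 3, and the groups only just failed to overlap. Its near-identical neighbour Hspa1a had 0.62 ± 0.28 with overlap, and probes may not separate them. The 42 cytosolic chaperones as a list had a median of -0.0047 at median percentile 77.9, which turned to 0.01 after quantile normalization and cyclic loess and ran from -0.04 without Control 1 or Control 2 to 0.02 without Control 3. Genes of stress in the endoplasmic reticulum had 0.013 over 38 genes at median percentile 66.8, from -0.03 without Control 1 or METH 1 to 0.06 without METH 2. Neither list has a settled direction. Among the latter, Ero1b, an oxidase of protein folding, had -0.44 ± 0.11 without overlap.

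Several of the smallest p-values belonged to genes outside these pathways. Lor, a protein of the cornified envelope of skin, read 583, 535 and 785 in control and 1904, 1131 and 1802 in METH, with 1.33 ± 0.20 (adjusted p = 0.175, and 0.031 without METH 2). It was dim, and its other probe sets, below the filter, had 0.49 and -0.88. Of 58 genes of cornified envelope and keratin 13 passed the filter, with a median of 0.32 at median percentile 7.06, 0.20 without METH 2 and 0.50 without METH 3. With no filter the median was 0.20. Genes this dim can pass the filter through their METH or MPTP values, so no count over the 13 is drawn. Their mean deviation was 0.42, 0.54 and 0.14 in METH 1, 2 and 3. Lce1b had 0.56 ± 0.13 and Krt75 0.51 ± 0.14. Cornified envelope proteins are products of skin, and whether these probe sets read them in striatum was not tested.

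Dcaf12, a substrate receptor of a ubiquitin ligase, read 1614, 1349 and 2008 in control and 2966, 4094 and 3034 in METH, with 1.02 ± 0.18 and no overlap. Jph1, which ties the plasma membrane to internal calcium stores, had 0.56 ± 0.11, and Plxnb3, a semaphorin receptor, 0.50 ± 0.10. Rras2, a small guanosine triphosphatase related to Ras, read 1570.3, 1436 and 1562 and 2610.3, 2444 and 2176, with 0.66 ± 0.15 and agreement of its 2 probe sets. Ccnd3, a D-type cyclin, had 0.56 ± 0.14. On the lower side, Tfdp1, the dimer partner of E2F factors, read 5519, 5028 and 4311 and 3583, 2954 and 3605, with -0.55 ± 0.12. Mapkapk5, a kinase under p38, had -0.64 ± 0.16, Rasl10a, a small Ras-like protein, -0.80 ± 0.19, and Aldh9a1, an aldehyde dehydrogenase, -0.52 ± 0.10. Each was without overlap between groups, and adjusted p over these genes was 0.306 to 0.479.

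A pair of nuclear pore genes lay among the named genes in opposite directions. Pom121, an anchor of the pore, read 4030.5, 4482 and 3944 in control and 12179, 11966 and 13609.6 in METH, with 1.60 ± 0.42 (adjusted p = 0.479). The METH values were 3.03-fold the control values, but the other Pom121 probe set had 0.17 ± 0.16 with overlap. In a fit on the 6 METH and control arrays alone its adjusted p was 0.00337, and without MPTP 2, which read 3413 between MPTP values of 15118 and 10044, it was 0.0181. Nup107, of the pore's outer ring, read 1313, 1760.1 and 1496 and 826, 803 and 1063, with -0.76 ± 0.15 (adjusted p = 0.343) by its only probe set. Fen1, a nuclease of DNA replication and repair, read 5419, 3909.9 and 2229 and 1762, 1674 and 1459, with -1.15 ± 0.27. The METH values were tight and the control values ranged widely, and its other probe set gave -0.31.

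Genes over 2-fold were mostly single probe sets of low signal. Of the 14, only Gfap and Hspa1b had further tested probe sets that were also over 2-fold. Values set by 1 array were common among them. R3hcc1 read 1330.02, 930.1 and 1121 in control and 719, 66.3 and 1064 in METH, where METH 2 alone was very low. Wdr36 read 1441, 188 and 1548 and 1802, 1545 and 1555, where Control 2 alone was low. Uba7, an activating enzyme for the ubiquitin-like ISG15, read 719, 241 and 1242 and 1359, 1600.2 and 2246, with controls that spread as widely as the groups differ.

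Agreement between the probe sets of a gene was counted. Among 3014 genes with 2 or more probe sets tested, all probe sets had 1 sign for 47.2%. For the 127 such genes higher at an unadjusted p under 0.05 it was 66.9%, and for the 88 lower genes 48.9%. Where all METH arrays lay above control it was 56.4% of 188 genes, and where all lay below it was 40.5% of 242, against 47.2% of the 2584 genes whose groups overlapped. Lower genes thus had probe sets of 1 sign about as often as genes in general. The representative probe set is 1 of those counted, and no test was made of these shares. It is also the gene's brightest, so the others are dimmer, and dim genes were more often higher in METH. The part of that relation in these shares, and that of the number of probe sets per gene, was not tested.

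All probe sets had 1 sign and an unadjusted p under 0.05 for 24 genes, 17 higher and 7 lower. Ordered by the largest p among a gene's probe sets, these began with Gfap, Abca1, Hspa1b, Ttll1, Dgkz, Tfrc, H2-D1, Vim, Aqp4 and Fen1. Ttll1, an enzyme that adds glutamate chains to tubulin, read 2767, 1644 and 2162 in control and 1313, 1109.7 and 1467 in METH, with -0.73 ± 0.23. Dgkz, a diacylglycerol kinase of synapses, had -0.38 ± 0.12, and Tfrc, the transferrin receptor through which cells take up iron, had -0.31 ± 0.11. Sema4d, a semaphorin of oligodendrocytes that binds plexin B receptors, had 0.33 ± 0.10 and was also among the 24.

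For 10 genes, probe sets at an unadjusted p under 0.05 pointed in opposite directions. Sypl, a relative of synaptophysin, had 0.26 ± 0.09 by its brightest probe set and -0.66 ± 0.22 by another. Podxl, a sialomucin of endothelium, read 1809, 1638 and 1514 in control and 1287, 1339 and 1393 in METH by 1 probe set, a difference of -0.30 ± 0.11, and 1017, 1017 and 917 and 1262, 1524 and 1092 by the other, a difference of 0.38 ± 0.13. In both genes the groups did not overlap by either of these probe sets, so repeatable readings conflicted. Dab1, of reelin signalling, and Anapc5, of the anaphase-promoting complex, were also among the 10.

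**Figure D5:**
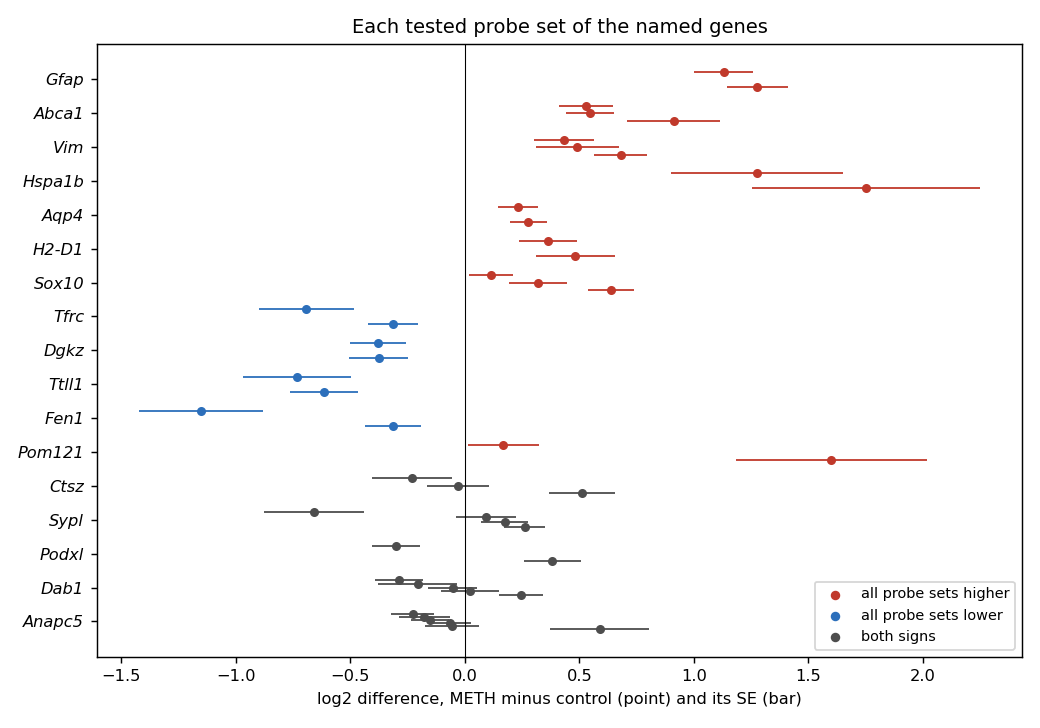
Log2 difference, METH minus control (x axis, point) with its SE (bar), for each tested probe set of 17 genes. The 2 Gfap probe sets lie at 1.13 and 1.28 and the 3 Abca1 probe sets at 0.53 to 0.91, whereas Pom121 has 1.60 and 0.17 and Sypl, Podxl, Dab1, Anapc5 and Ctsz have probe sets on each side of 0.

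METH was finally set against MPTP, which destroys dopamine terminals after conversion to a toxin in astrocytes. METH and MPTP were each compared with the same 3 control arrays, so likeness of those comparisons is in part built in. In the direct test of METH minus MPTP in limma, 0 of 7964 genes passed, and the smallest adjusted p was 0.999. Before adjustment 227 genes had p under 0.05 (2.85%), 124 higher in METH (1.56%) and 103 lower (1.29%). Gfap read 13596, 11350.3 and 12025 on the MPTP arrays, a METH minus MPTP difference of -0.01 ± 0.13. For Vim and Abca1 it was 0.13 ± 0.13 and 0.06 ± 0.10, for Irgm1 0.10 ± 0.14, and for Cabp1 and Nup107 -0.06 ± 0.11 and 0.02 ± 0.15. A difference of this size cannot be told from 0 here, which does not show that the toxins act alike.

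Several genes had METH minus MPTP values further from 0, though none passed. Apart from Fos, those given here were named for small p-values of METH against control. Their METH values were thus extreme by choice, which by itself favours METH minus MPTP values on the same side. Lor read 768, 825 and 721 on the MPTP arrays, all below the METH values, with 1.03 ± 0.20. Tfdp1 read 4991, 4787 and 4789.9, all above METH, with -0.53 ± 0.12. Lpcat3 had 0.36 ± 0.10, Sox10 0.30 ± 0.10, Dcaf12 0.69 ± 0.18, Mapkapk5 -0.54 ± 0.16 and Carns1, an enzyme of carnosine synthesis, 0.45 ± 0.12. For Fos the difference was 0.28 ± 0.13, and the 33 immediate early genes had a median METH minus MPTP difference of 0.18, against -0.0080 over all genes. The mean deviation of that list from control was -0.11, -0.26 and -0.08 in MPTP 1, 2 and 3, with MPTP 2 furthest out. It was -0.04, 0.003 and -0.01 in METH 1, 2 and 3, and -0.05, -0.06 and 0.11 in the controls. Microglial markers had a median METH minus MPTP difference of 0.012 and complex I genes one of -0.046.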

How the data were processed

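The authors deposited 1 linear intensity per probe set and array, taken as such from the values, with a common trimmed mean of 2501. Per the submitters' processing notes RMA was used, with no version given, but the deposited intensity values are neither on a log scale nor as alike as RMA makes them, so how probe sets were summarised is unsettled. The probe annotation that fits the values belongs to a smaller array than the design text names. Of 22690 probe sets, 20380 had 1 gene symbol, 691 several and 1555 none listed, and 64 were array controls. Gene IDs were looked up in a RefSeq gene table (GRCm38.p6), which held 20351.

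Values were taken to log2 with no pseudocount and no further normalization. Probe sets under the 40th percentile of mean log2 signal (9.53, a signal of 741) were left out, and the brightest probe set stood for its gene. Groups were compared in limma 3.58.1 under R 4.3.3 (lmFit with 1 mean per group over all 9 arrays, eBayes, 6 residual and 3.93 prior degrees of freedom, two-sided), with Benjamini-Hochberg adjustment over 7964 genes. The fit was tested on simulated data. Genes were named by a rule: those past the test or, with fewer than 5, the 15 higher and 15 lower with the smallest p; up to 4 per list; a fixed set of cell type genes; 10 genes with agreeing and 5 with opposite probe sets; and 5 per direction with the widest gap between groups. R3hcc1, Wdr36 and others among the 14 over 2-fold were named for their size after their values were seen. The members and the 62 gene lists, 57 of them with 5 or more genes tested, were chosen with earlier results of these data known. No set test was run. Intensities carry no counts, so the number of arrays limits the precision, which is also lower for dim genes.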

Additional observations from a re-analysis of the deposited data

How the results depend on the processing

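Each result was recomputed under 20 alternatives. For METH against control, the count past the test, 1 gene in the report, was 0 with arrays centred on their medians and 0 with the replicate number as a block; it was 0 to 2 when single arrays were left out, with Lor beside Gfap without METH 2 and Pom121 beside Gfap without MPTP 2. With only METH and control arrays in the fit the 1 gene was Pom121 and not Gfap. Genes higher at an unadjusted p under 0.05 numbered 224 with arrays centred on their medians and 243 with a filter at the 60th percentile, against 414, and genes lower numbered 485 with centred arrays and 376 with array weights, against 243. Probe sets past the test, 2 in the report, numbered 0 with centred arrays, 1 with no filter, 0 without _x_at and _s_at probe sets, 1 with only METH and control arrays, 0 with the replicate block, and 0 to 1 when single arrays were left out. The share of several-probe-set genes with 1 sign was 44.5% with no filter, against 47.2%. METH against MPTP gave 0 genes under each of the 19 alternatives that keep the MPTP arrays. Deviations from the group means were almost uncorrelated between METH and control arrays of the same number (-0.041, 0.019 and -0.026). That cannot exclude a shared day or batch, and the labels do not say what the numbers mark. The replicate block in limma gave Gfap an adjusted p of 0.0759. It gave 394 higher and 214 lower genes at an unadjusted p under 0.05. Among named genes, Psmd13 reversed to -0.16 without _x_at and _s_at probe sets, and Sypl and Podxl reversed to -0.03 and 0.04 with the mean of all probe sets. Over all lists and alternatives, 129 of 1240 list medians moved by more than the spread between arrays. Signal over background limits the dim genes: the median SE was 0.17 in the dimmest decile and 0.098 in the brightest.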
